A study of Homo sapiens with 15 samples.

Results

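This comparison sets cells carrying wildtype EWS/FLI (WT-EF) against cells carrying Δ22, a form of EWS/FLI from which all but a few residues of the EWS domain were removed, so that the FLI DNA-binding portion was present on both sides and the EWS domain on 1 side. Its members are the 3 WT-EF and the 3 Δ22 libraries, chosen by their labels, which are 6 of the 15 RNA-seq libraries in the series. All cells were A673, a single Ewing sarcoma cell line that carries its own EWS/FLI fusion. In both groups the endogenous fusion was first depleted with the retroviral shRNA iEF, which targets the 3′UTR of EWS/FLI, on day 1, and an N-terminally FLAG-tagged cDNA in the pMSCV-hygro vector was delivered on day 5. Cells were held in 2 µg/mL puromycin and, from day 6, 400 µg/mL hygromycin B, and RNA was taken after selection ended on day 16. The other libraries used here are 3 labelled iLuc, from cells given an shRNA against luciferase and keeping endogenous EWS/FLI, and 3 labelled iEF, from depleted cells, both with an empty vector in place of the cDNA. A further 3 libraries carry DAF, a tyrosine mutant of the EWS domain, and entered the fit without being described. The constructs were expressed from a retroviral promoter in 1 cell line, so the values describe replacement of the fusion in A673 and not its native locus.

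EWS/FLI is made by a chromosomal translocation that joins the low-complexity amino-terminal part of EWSR1 to the carboxy-terminal part of FLI1, an ETS family transcription factor. The ETS domain of FLI binds the core GGAA, while the EWS portion recruits transcriptional machinery and chromatin remodelling complexes. Per the study, the EWS portion also enables the fusion to bind tandem repeats of the core, known as GGAA-microsatellites. The fusion is known both to activate and to repress genes. The comparison asks how much of either depends on the EWS domain when the FLI DNA-binding portion is on both sides. Binding to DNA was not measured here and may differ between the constructs, at repeats above all.

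Each library held between 28659475 and 41859880 counted reads, and the 6 compared here held between 30825838 and 39098413, so that 3 reads corresponded to between 0.0782 and 0.107 CPM (library-size-normalised read count, scaled between libraries by the trimmed mean of M-values). Replicates of a group differed by more than counting noise, with a mean chi-square per gene between 37 and 98.8 for the 6 replicate pairs, so no library was counted as a copy of another. The labels do not tie the 3 libraries of a group to separate cultures, whereas the study's scheme presents transduction, selection and harvest as the course of each replicate. The p-values measure the spread between libraries, taken as 1 estimate shared by all 15 libraries of the 5 groups. RNA was taken in bulk, and fewer cells of a kind cannot be told apart from less RNA per cell. Of the 7 markers listed for Ewing sarcoma lines, 6 were above 1 CPM in at least 1 of the 6 libraries, and CD99, a pseudoautosomal gene annotated on both sex chromosomes, held at most 3 reads in any of them. The listed markers of leukocytes and epithelium each summed to at most 3.43 CPM in every library. Among endothelial and hepatocyte markers, KDR stood at 3.36 to 12.6 CPM in WT-EF and 23.3 to 33.7 CPM in Δ22. APOA1 stood at 0.133 to 0.582 CPM in WT-EF and 5.66 to 9.04 CPM in Δ22. The listed markers VWF and ALB stayed at or under 0.365 CPM in all 6, and CDH5 lay between 0.117 and 0.750 CPM. No cell type was inferred from these markers.

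The genes that make up the constructs were read first. FLI1 (ENSG00000151702, GRCh37 chr11:128556430-128683162, plus strand), whose reads include those of the construct, stood at 16.0, 18.0 and 18.7 CPM in WT-EF and at 24.4, 32.9 and 36.2 CPM in Δ22. Every Δ22 library was above every WT-EF library, and the fitted difference was -0.81 ± 0.10 (log2, standard error; adjusted p = 2.58e-05; here and below, from the quasi-likelihood fit of edgeR, Benjamini-Hochberg over all genes). In iEF the gene averaged 14.6 CPM and in iLuc 49.4 CPM. EWSR1 (ENSG00000182944), which shares its 5′ exons with the WT-EF cDNA, stood at 333, 333 and 364 CPM in WT-EF and at 286, 267 and 301 CPM in Δ22 (0.27 ± 0.07, adjusted p = 0.00594; 0.0756 when the 6 libraries were fitted alone, 0.0802 without replicate set 1 and 0.094 without set 2). Reads over FLI1, which do not separate the construct from the cells' own transcripts, were thus 1.76-fold higher with Δ22, and the part of this in the differences below was not tested.

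Of 28793 genes tested, 3760 were higher in WT-EF than in Δ22 (13.1% of all) and 4961 were lower (17.2%). With a fold change above 2 required as well, 1540 were higher (5.35%) and 2654 lower (9.22%). Changes above 8-fold were found in 392 higher and 467 lower genes. The 3 WT-EF libraries did not overlap the 3 Δ22 libraries in CPM for 10661 genes, or 37% of all, and for 91.2% of the genes called higher and 92.5% of those called lower at 2-fold. The count of higher genes fell to 2481 without replicate set 1 and to 2261 without set 2, in each case with 10 of the 15 libraries left. Protein-coding genes were called more often than lncRNAs: 18.6% of 16089 protein-coding genes were higher and 25.6% lower, against 8% and 9.02% of 5776 lncRNAs, whose median level of 5.6 reads per library compares with 500 for protein-coding genes. For the gene lists below, the shares of protein-coding genes are the nearer background.

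To see whether these calls hold in cells that did not choose them, genes were called with 1 replicate set left out and then read in the WT-EF and Δ22 libraries of that set. For the 1241, 1270 and 1144 genes called higher at 2-fold without sets 1, 2 and 3, the median log2 ratio in the set left out was 1.51, 1.33 and 2.09, and between 96.2% and 97.7% of them were higher there. For the 2526, 2055 and 1888 genes called lower, it was -1.10, -1.54 and -2.25, with between 95.8% and 98.9% lower. The direction thus held in each set for nearly all such genes, and the size was largest in set 3 for both directions.

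**Figure D1:**
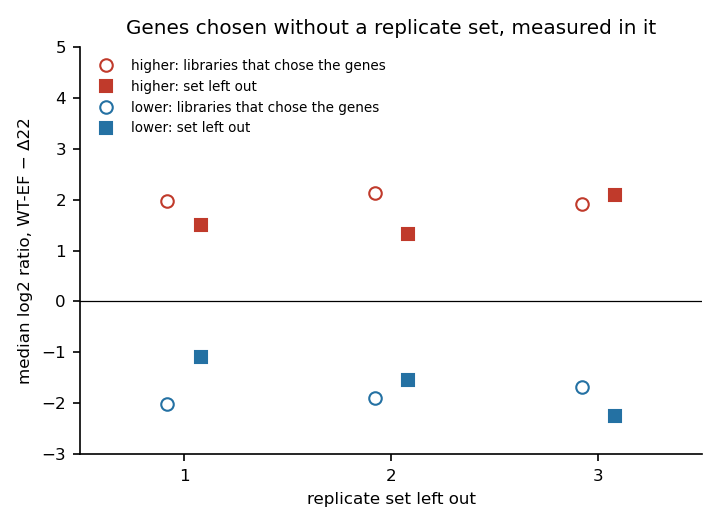
Median log2 ratio of WT-EF to Δ22 (y axis) over genes called at 2-fold without 1 replicate set (x axis), in the libraries that chose the genes (open circles) and in the set left out (squares), for genes higher (red) and lower (blue) in WT-EF. The medians in the sets left out ran from 1.33 to 2.09 for genes called higher and from -1.10 to -2.25 for genes called lower.

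Known activated targets of EWS/FLI were mostly higher with the EWS domain present. Of 41 tested, 35 (85.4%) were higher and 2 (4.88%) lower, beside 13.1% and 17.2% of all genes and 18.6% and 25.6% of protein-coding genes. The median log2 fold change was 1.89, beside -0.01 for all genes. This list was drawn from general knowledge of Ewing sarcoma lines, A673 included, and is no independent evidence of a direction. NR0B1 (ENSG00000169297, chrX:30322323-30327507, minus strand), an orphan nuclear receptor that the fusion activates from a microsatellite, stood at 42.2, 46.1 and 59.4 CPM in WT-EF and at 3.60, 9.78 and 18.7 CPM in Δ22. The groups were apart, and the fitted change was 2.36 ± 0.37 (adjusted p = 0.000187), a 5.13-fold difference. NKX2-2, a homeodomain factor of ventral neural progenitors, was at a low level, 2.21, 2.14 and 2.69 CPM in WT-EF against 1.05, 0.991 and 0.572 CPM in Δ22 (1.42 ± 0.25, adjusted p = 0.000584). GSTM4, a glutathione S-transferase, stood at 40.7, 44.8 and 66.5 CPM in WT-EF and at 7.77, 10.3 and 8.50 CPM in Δ22 (2.51 ± 0.22, adjusted p = 1.83e-06).

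The remaining named targets moved the same way. FCGRT, the large chain of the neonatal Fc receptor, stood at 58.4, 71.6 and 67.5 CPM with WT-EF and at 6.45, 16.0 and 12.1 CPM with Δ22 (2.59 ± 0.26, adjusted p = 4.51e-06). RBM11, an RNA-binding splicing regulator, was at 116, 214 and 206 CPM against 21.1, 44.4 and 30.2 CPM (2.51 ± 0.16, adjusted p = 2.09e-07). CYP4F22, a fatty acid hydroxylase of skin ceramide synthesis, rose from 0.674, 1.62 and 0.893 CPM in Δ22 to 16.9, 26.6 and 39.1 CPM in WT-EF (4.67 ± 0.36, adjusted p = 7.03e-07). SOX2, a pluripotency and neural progenitor factor, changed least of these, with 123.1, 106 and 136 CPM in WT-EF against 49.5, 55.6 and 91.1 CPM in Δ22 (0.92 ± 0.17, adjusted p = 0.000928). PDGFC, a growth factor on the same list, was instead lower in WT-EF, at 48.0, 40.4 and 42.8 CPM against 100.2, 80.2 and 97.4 CPM (-1.08 ± 0.11, adjusted p = 7.54e-06), and it was also lower in iLuc than in iEF (-1.14).

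**Figure D2:**
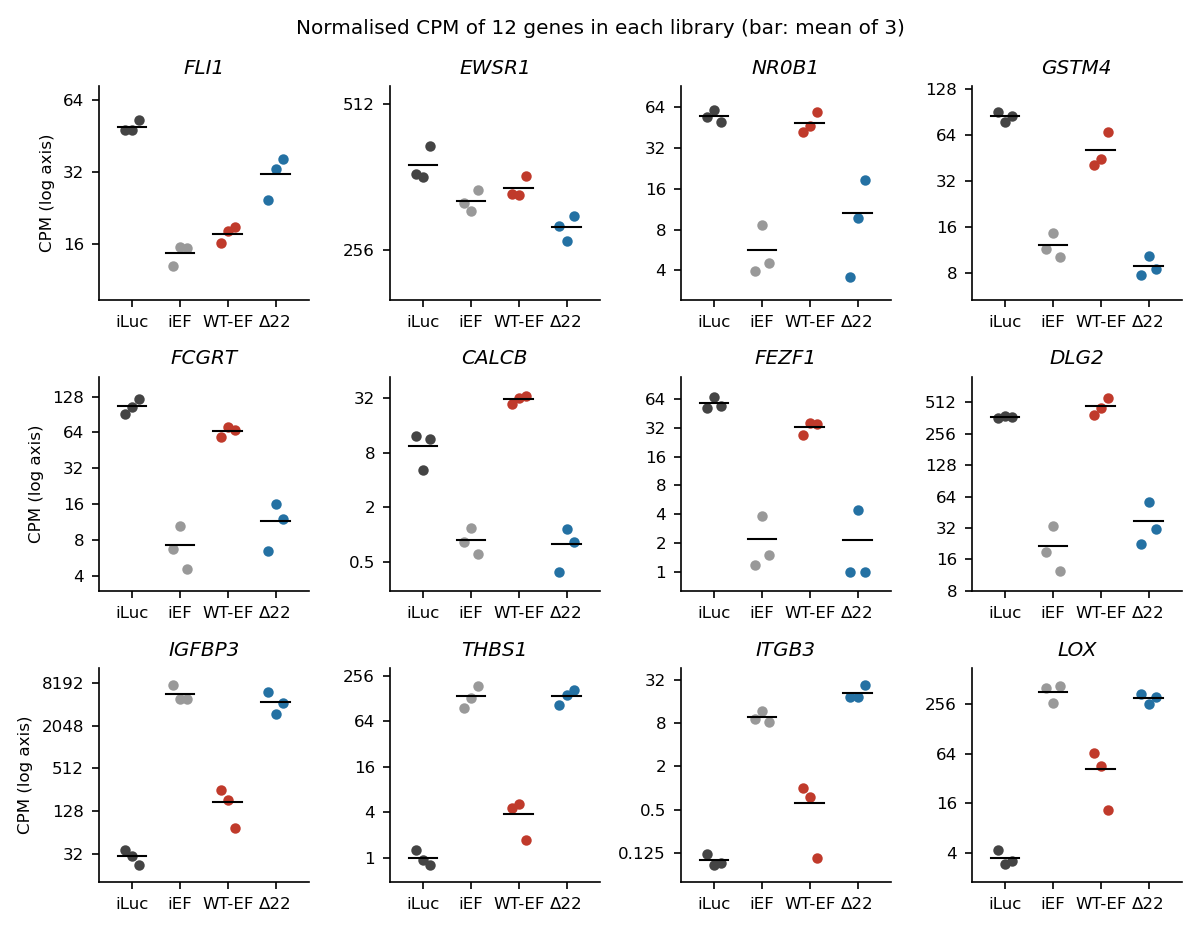
Normalised CPM (y axis, logarithmic to base 2, a scale of its own per panel) of 12 genes in each iLuc, iEF, WT-EF and Δ22 library (points), with the mean of 3 libraries (bar). The upper and middle rows show the construct genes and genes called higher in WT-EF, where the WT-EF points of NR0B1 (42.2 to 59.4 CPM) lie above those of Δ22 (3.60 to 18.7 CPM); the bottom row shows genes called lower, where IGFBP3 lies at 73.6 to 257 CPM in WT-EF and at 3007 to 6145 CPM in Δ22.

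The study describes GGAA-microsatellites as 1 kind of element, beside ETS sites and other loci, from which EWS/FLI activates genes. Uninterrupted runs of GGAA were counted on either strand within 5 kb of each annotated gene start in GRCh37, the build of the deposited counts. A run of at least 10 copies lay near 1.03% of the 27879 genes with a position. It lay near 2.81% of genes higher in WT-EF, 5.58% of those higher by over 2-fold and 12.9% of those higher by over 8-fold (49 of 381; 95% Wilson interval 9.87 to 16.6%), and near 0.639%, 0.659% and 0.22% of genes lower by the same steps (1 of 454 in the last; 0.0389 to 1.24%). With a minimum of 4 copies the shares over 8-fold were 16% for higher and 3.3% for lower genes beside 3.63% of all. Within 1 kb, runs of at least 10 copies lay near 2.62% of genes higher by over 8-fold and 0.126% of all. Neighbouring genes can share a run, so genes are not independent counts, and a run is a match of letters and not a measured binding site.

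The sequences of 6 such runs at named genes called higher are given as examples. The genes were picked for having a run, so the run is not a result that they share. The count of runs was added after the data were seen. Each is read 5′ to 3′ on the strand that carries GGAA, with the longest uninterrupted run in capitals and 40 flanking bases in lower case; none overlaps an annotated exon. The NR0B1 run of 11 copies lies 1389 bases upstream of the gene, at chrX:30328835-30328958 (minus strand) with its flanks, and the GSTM4 run of 10 copies lies 1811 bases upstream, at chr1:110196851-110196970 (plus strand). The APELA run of 14 copies is 3805 bases upstream, at chr4:165794458-165794593 (plus strand), and the RBM11 run of 11 copies is 2817 bases upstream, at chr21:15585573-15585696 (minus strand). Those of CYP4F22, 12 copies at chr19:15620629-15620756 (minus strand), and FCGRT, 12 copies at chr19:50014724-50014851 (plus strand), are intronic, 1356 and 4714 bases downstream of the gene start.
NR0B1: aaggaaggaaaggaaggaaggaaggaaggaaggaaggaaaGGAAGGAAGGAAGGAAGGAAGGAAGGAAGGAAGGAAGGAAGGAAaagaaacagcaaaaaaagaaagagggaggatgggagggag
GSTM4: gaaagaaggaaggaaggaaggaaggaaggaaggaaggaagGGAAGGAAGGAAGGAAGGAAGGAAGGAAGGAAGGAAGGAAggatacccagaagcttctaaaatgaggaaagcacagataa
APELA: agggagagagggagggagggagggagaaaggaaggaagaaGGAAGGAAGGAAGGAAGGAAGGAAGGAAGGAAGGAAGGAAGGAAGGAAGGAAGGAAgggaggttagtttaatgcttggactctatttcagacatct
RBM11: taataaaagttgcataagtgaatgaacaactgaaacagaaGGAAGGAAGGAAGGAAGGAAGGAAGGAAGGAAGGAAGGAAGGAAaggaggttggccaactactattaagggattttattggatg
CYP4F22: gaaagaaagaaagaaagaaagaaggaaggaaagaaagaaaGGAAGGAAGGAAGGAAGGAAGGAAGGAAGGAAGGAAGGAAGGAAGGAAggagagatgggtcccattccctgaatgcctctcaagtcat
FCGRT: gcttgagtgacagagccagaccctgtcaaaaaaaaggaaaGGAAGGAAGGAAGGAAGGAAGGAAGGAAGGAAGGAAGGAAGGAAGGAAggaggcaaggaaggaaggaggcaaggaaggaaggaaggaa
In NR0B1, GSTM4 and FCGRT further repeats stand beside the longest run, and the printed stretches hold 20, 19 and 19 copies of GGAA in all, while that of RBM11 holds 11, which is its single run. All 6 genes were called higher in WT-EF and had a run of at least 10 copies, which were conditions for showing them. Among genes higher by over 8-fold, 12.9% had such a run.

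**Figure D3:**
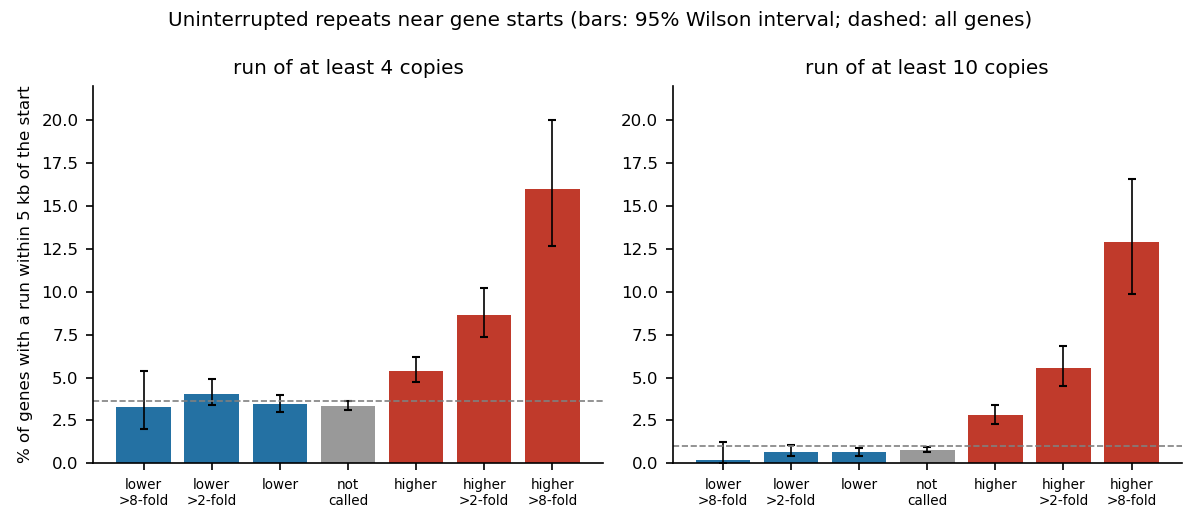
Share of genes (y axis, percent) with an uninterrupted GGAA run of at least 4 copies (left) or 10 copies (right) within 5 kb of the annotated start, for classes of genes by direction and size of the WT-EF against Δ22 difference (x axis); whiskers are 95% Wilson intervals, which cover counting error only, and the dashed line is all genes tested. On the right the share runs from 0.22% of genes lower by over 8-fold to 12.9% of genes higher by over 8-fold.

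Promoters, taken from RefSeq (GRCh38.p14) as 250 bases before to 50 after the start and matched by symbol for 14697 tested genes, differed in a shorter motif. The high-affinity ETS site CCGGAAGT, on either strand, was in 6.93% of promoters of all genes tested, in 8.16% of those of all genes called higher and 4.49% of those called lower. Among genes changed by over 2-fold it was in 1.97% of the promoters of the higher and 1.06% of those of the lower. The pair GGAAGGAA was in 3.44% of all promoters, 3.24% of the higher and 4.13% of the lower class. The 2 motifs can overlap in their GGAA, and both shares are descriptions of letters in these windows.

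The largest increases among named genes included those of IGSF21, LRRTM4, CHP2, APELA, RPL4P1, CALCB, TRAV6, OR4A16 and LINC00463, with log2 fold changes between 5.18 and 6.55. IGSF21, a synaptic immunoglobulin-superfamily protein, stood at 4.38, 6.47 and 14.9 CPM in WT-EF and at 0.0293, 0.0782 and 0.179 CPM in Δ22 (6.55 ± 0.50, adjusted p = 7.03e-07). APELA, a secreted peptide ligand of the apelin receptor, was at 21.3, 32.8 and 46.5 CPM against 0.352, 0.965 and 1.04 CPM (5.46 ± 0.55, adjusted p = 4.91e-06). CALCB, which encodes a calcitonin gene-related peptide, was at 27.9, 32.1 and 33.9 CPM against 0.381, 1.15 and 0.822 CPM (5.32 ± 0.40, adjusted p = 6.63e-07). In all 3 genes every Δ22 library was at or under 1.15 CPM. Their groups did not overlap, which was a condition for naming them. In iLuc, IGSF21, APELA and CALCB averaged 0.532, 32.35 and 9.57 CPM, beside 8.60, 33.5 and 31.3 CPM in WT-EF. RPL4P1 is a processed pseudogene of RPL4 and OR4A16 belongs to the olfactory receptor family, so reads may be shared with near-identical copies and their values are uncertain, as are those of TRAV6, a T cell receptor segment of a multigene family. RPL4P1 (chr14:22218553-22219830) and TRAV6 (chr14:22236729-22237320) lie close together on the plus strand, and whether their increases are separate was not tested. Whether counting used the strand is not given in the sources used here. Reads of a gene and of an overlapping antisense gene may thus not be separated.

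Of 48 neural and developmental transcription factors, 18 were higher and 7 lower (median 0.67, between 0.42 and 0.94 as libraries were left out in turn). These are 37.5% and 14.6%, beside 13.1% and 17.2% of all genes and 18.6% and 25.6% of protein-coding genes. FEZF1, a forebrain zinc finger factor, stood at 26.8, 36.1 and 34.9 CPM in WT-EF and at 0.996, 4.41 and 1.00 CPM in Δ22 (4.12 ± 0.34, adjusted p = 1.09e-06). POU3F1, a POU factor of Schwann cells and neurons, was at 26.9, 38.5 and 34.5 CPM against 3.69, 8.58 and 5.65 CPM (2.53 ± 0.16, adjusted p = 1.75e-07). OTX2, a forebrain and midbrain homeobox gene, also rose (1.96 ± 0.17, adjusted p = 1.62e-06).

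Among 49 synaptic vesicle and synaptic adhesion genes, 17 were higher and 9 lower (median 0.59). These are 34.7% and 18.4%, beside 13.1% and 17.2% of all genes and 18.6% and 25.6% of protein-coding genes. DLG2, a postsynaptic scaffold protein, was abundant with WT-EF at 382, 453 and 567 CPM and stood at 22.5, 56.9 and 31.6 CPM with Δ22 (3.75 ± 0.28, adjusted p = 6.63e-07). Its binding partner DLGAP1 was at 80.6, 104 and 108 CPM against 9.44, 17.3 and 8.79 CPM (3.09 ± 0.24, adjusted p = 6.98e-07). LRRTM4, an adhesion protein of excitatory synapses, had the second largest increase of all named genes (5.56 ± 0.52, adjusted p = 2.52e-06). It averaged 6.72 CPM in WT-EF, 0.141 CPM in Δ22 and 0.511 CPM in iLuc. UNC13A, which primes synaptic vesicles, went the other way (-1.99 ± 0.19, adjusted p = 3.02e-06). The list thus holds members with large changes of either sign.

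Of 79 potassium channel genes, 15 were higher and 16 lower, or 19% and 20.3% beside 13.1% and 17.2% of all genes. Among protein-coding genes, the kind this list holds, 18.6% were higher and 25.6% lower. KCNH5, a voltage-gated channel, stood at 15.7, 12.6 and 20.3 CPM in WT-EF against 0.264, 1.07 and 0.643 CPM in Δ22 (4.67 ± 0.39, adjusted p = 1.32e-06). The calcium-activated channels KCNMA1 (-2.90 ± 0.22, adjusted p = 7.22e-07) and KCNN4 (-2.62 ± 0.22, adjusted p = 1.14e-06) and the voltage-gated KCNQ5 (-1.06 ± 0.11, adjusted p = 5.80e-06) fell. Axon guidance genes were similarly mixed, with 17 of 69 higher (24.6%) and 20 lower (29%) and a median of -0.02. NEO1, a netrin receptor, was at 63.3, 102 and 102 CPM in WT-EF against 24.6, 41.8 and 32.8 CPM in Δ22 (1.43 ± 0.11, adjusted p = 6.33e-07), while the receptor tyrosine kinase EPHB2 (-1.48 ± 0.13, adjusted p = 1.79e-06) and the semaphorin SEMA7A (-2.54 ± 0.23, adjusted p = 2.41e-06) were lower.

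HOX cluster genes, which set position along the body axis, gave 9 higher and 6 lower of 29, and their median of -0.29 had the sign of the smaller group. The counts are 31% and 20.7%, beside 13.1% and 17.2% of all genes and 18.6% and 25.6% of protein-coding genes. HOXD genes were among the higher: HOXD13 was at 37.9, 39.2 and 48.7 CPM in WT-EF against 12.8, 16.6 and 13.7 CPM in Δ22 (1.54 ± 0.12, adjusted p = 8.84e-07), HOXD8 changed by 1.21 ± 0.12 (adjusted p = 5.16e-06) and HOXD9 by 1.36 ± 0.17 (adjusted p = 3.55e-05). HOXB8 was at 1.75, 1.48 and 1.17 CPM in WT-EF against 10.5, 7.82 and 9.47 CPM in Δ22 (-2.66 ± 0.17, adjusted p = 2.19e-07).

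Among 23 Wnt antagonists and target genes, 5 were higher and 4 lower, or 21.7% and 17.4% beside 13.1% and 17.2% of all genes. The shares of protein-coding genes were 18.6% and 25.6%. The antagonists APCDD1 (236, 300.4 and 342 CPM in WT-EF against 17.4, 52.3 and 38.5 CPM in Δ22, 3.11 ± 0.26, adjusted p = 1.09e-06) and DKK2 (122, 201 and 234 CPM against 5.80, 27.2 and 11.04 CPM, 3.84 ± 0.33, adjusted p = 1.43e-06) rose with the intracellular antagonist NKD2 (2.78 ± 0.34, adjusted p = 2.43e-05). DKK3, of the same family, fell from 179.5, 178 and 259.9 CPM to 19.4, 16.1 and 26.4 CPM (-3.32 ± 0.17, adjusted p = 4.25e-08). Among 16 Hedgehog pathway genes, 5 were higher and 4 lower (31.2% and 25%): the transcription factor GLI1 (1.495, 2.99 and 4.37 CPM against 0.146, 0.521 and 0.322 CPM, 3.18 ± 0.45, adjusted p = 8.91e-05), the receptor PTCH1 (1.21 ± 0.13, adjusted p = 6.50e-06) and the co-receptor GAS1 (1.20 ± 0.18, adjusted p = 0.000172) rose, and the co-receptor BOC fell (-1.54 ± 0.25, adjusted p = 0.000321).

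On the other side, of 20 known repressed targets 19 (95%) were lower in WT-EF than in Δ22 and none was higher (median -2.78). Of all genes 17.2% were lower, and of protein-coding genes 25.6%. This list too was drawn from knowledge of Ewing sarcoma lines. IGFBP3 (ENSG00000146674, chr7:45951844-45961473, minus strand), which binds insulin-like growth factors, stood at 257, 186 and 73.6 CPM in WT-EF and at 6145, 3007 and 4270 CPM in Δ22. That is 27.1-fold more in Δ22 (-4.76 ± 0.29, adjusted p = 1.31e-07), with no overlap. LOX, the collagen cross-linking enzyme lysyl oxidase, was at 66.0, 45.5 and 13.3 CPM against 344, 256 and 311 CPM (-2.95 ± 0.34, adjusted p = 1.70e-05). TGFBR2, the type II receptor of TGF-beta, was at 65.4, 47.9 and 47.2 CPM against 139.7, 163 and 229 CPM (-1.71 ± 0.16, adjusted p = 2.57e-06). THBS1, the matrix protein thrombospondin-1, was at 4.62, 5.15 and 1.70 CPM against 104, 143 and 167 CPM (-5.11 ± 0.37, adjusted p = 4.87e-07). In IGFBP3, LOX and THBS1 the lowest of the WT-EF libraries was that of replicate set 3.

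The 10 named genes with the largest decrease were IDO1, HLA-DRA, KIAA1755, IGFBP1, THBS1, ITGB3, NNMT, TM4SF1, IGFBP3 and TBX2, with fitted log2 changes between -7.45 and -4.76. Of these, 3 had 3 reads in all over the WT-EF libraries together, and for these the fitted value depends on the prior count. Summed over libraries, IDO1, which degrades tryptophan, was 206-fold higher in Δ22 (95% counting interval 70.3 to 1004), HLA-DRA, a chain of the HLA-DR molecule, 138-fold higher in Δ22 (95% counting interval 47 to 674), and KIAA1755 119-fold higher in Δ22 (95% counting interval 40.3 to 579). Their Δ22 levels differed between libraries: IDO1 was at 2.26, 3.44 and 12.5 CPM and KIAA1755 at 0.527, 0.965 and 9.51 CPM, with replicate 3 far above the other two, while HLA-DRA was at 2.40, 4.59 and 4.14 CPM. Without Δ22 replicate 3 the ratio was 107 for IDO1 (36.2 to 524) and 28.2 for KIAA1755 (9.16 to 141). With so few WT-EF reads it also moved with those libraries, to 419 for IDO1 and 241 for KIAA1755 without WT-EF replicate 1, to 137 for IDO1 without WT-EF replicate 3 and to 78.5 for KIAA1755 without WT-EF replicate 2. TM4SF1, a cell surface tetraspan protein, was well measured at 32.1, 14.0 and 4.07 CPM in WT-EF and 423, 347 and 536 CPM in Δ22 (-4.80 ± 0.49, adjusted p = 4.98e-06). ITGB3, an integrin chain of platelets and osteoclasts, was at 0.997, 0.740 and 0.106 CPM against 18.6, 18.5 and 27.1 CPM (-5.11 ± 0.45, adjusted p = 1.57e-06).

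The lists of collagens, of integrins and laminins and of matrix proteases held more lower than higher members. Of 44 collagen genes 21 were lower and 2 higher (median -0.82). Of 37 integrins and laminins 26 were lower and 2 higher (-1.34), and of 41 matrix proteases and inhibitors 25 and 0 (-1.31). The shares lower were 47.7%, 70.3% and 61%, beside 17.2% of all genes and 25.6% of protein-coding genes. The shares higher were 4.55%, 5.41% and 0%, beside 13.1% and 18.6%. COL6A1, a chain of the beaded-filament collagen VI, stood at 49.0, 31.6 and 36.0 CPM in WT-EF and at 323, 337 and 721 CPM in Δ22 (-3.49 ± 0.26, adjusted p = 6.33e-07), and its partner COL6A2 changed alike (-3.45 ± 0.29, adjusted p = 1.23e-06). The transmembrane collagen COL13A1 was at 12.2, 11.2 and 9.90 CPM against 122, 89.6 and 69.9 CPM (-3.06 ± 0.19, adjusted p = 1.75e-07). COL21A1 was 1 of the 2 collagens that rose (1.92 ± 0.23, adjusted p = 1.94e-05).

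LAMA4, a laminin chain of vessel basement membranes, was at 15.3, 10.5 and 11.3 CPM in WT-EF against 181, 104 and 195 CPM in Δ22 (-3.67 ± 0.22, adjusted p = 1.31e-07). The collagen-binding integrin ITGA10 was at 4.82, 2.25 and 1.09 CPM against 47.9, 46.6 and 41.8 CPM (-4.14 ± 0.30, adjusted p = 4.48e-07), and the laminin-binding ITGA6 fell as well (-2.21 ± 0.16, adjusted p = 6.33e-07), while ITGA7 rose (1.01 ± 0.20, adjusted p = 0.00112). MMP14, a membrane-bound collagenase, was at 145, 139 and 135 CPM against 314, 339 and 462 CPM (-1.40 ± 0.11, adjusted p = 7.22e-07), with ADAMTS6 (-2.22 ± 0.21, adjusted p = 3.01e-06) and MMP16 (-1.26 ± 0.15, adjusted p = 2.02e-05) lower too.

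Mesenchymal and contractile genes went with them. Of 25 bone and mesenchymal lineage genes 17 (68%) were lower and 3 (12%) higher (median -1.45). The background was 17.2% and 13.1% of all genes, and 25.6% and 18.6% of protein-coding genes. FN1, fibronectin, was the most abundant of the named genes, at 4357, 4179 and 3638 CPM in WT-EF and 16130, 18624 and 15840 CPM in Δ22 (-2.06 ± 0.10, adjusted p = 4.87e-08). PDGFRA, the alpha receptor of platelet-derived growth factor, was at 4.71, 3.94 and 4.42 CPM against 76.8, 50.5 and 48.0 CPM (-3.72 ± 0.26, adjusted p = 3.87e-07), and the mesenchymal homeobox gene PRRX1 changed by -2.94 ± 0.21 (adjusted p = 4.04e-07). DLX5, a homeobox gene of bone formation, was among the 3 that rose (2.20 ± 0.24, adjusted p = 9.66e-06). Of 30 actin contractile genes 22 (73.3%) were lower and 1 (3.33%), TNS1, higher (0.73 ± 0.16, adjusted p = 0.00248, and 0.0752 without replicate set 1). CNN3, TPM4 and TGFB1I1 fell by 0.91, 0.81 and 2.11 on the log2 scale.

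Of 40 TGF-beta and activin signalling genes 28 (70%) were lower and 7 (17.5%) higher (median -0.92). The background was 17.2% and 13.1% of all genes, and 25.6% and 18.6% of protein-coding genes. LTBP1, which stores latent TGF-beta in the matrix, was at 3.77, 3.67 and 3.01 CPM in WT-EF against 35.7, 33.5 and 30.4 CPM in Δ22 (-3.25 ± 0.15, adjusted p = 2.15e-08), and the type I receptor TGFBR1 (-1.80 ± 0.15, adjusted p = 1.35e-06) and the transducer SMAD3 (-2.03 ± 0.18, adjusted p = 1.49e-06) fell, while the activin receptor ACVR1B rose (0.66 ± 0.10, adjusted p = 0.000161). Of 24 YAP/TEAD target genes 18 (75%) were lower and 1 (4.17%) higher (median -0.81). NT5E, the ecto-enzyme CD73, was at 819.9, 539 and 204 CPM against 2987, 2198 and 2632 CPM (-2.40 ± 0.29, adjusted p = 2.61e-05). The receptor kinase AXL was at 38.2, 18.6 and 5.59 CPM against 163, 119 and 106 CPM (-2.78 ± 0.34, adjusted p = 2.59e-05).

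Of 20 insulin-like growth factor ligands, receptors and binding proteins, 13 (65%) were lower and 2 (10%) higher (median -0.70). The background was 17.2% and 13.1% of all genes, and 25.6% and 18.6% of protein-coding genes. The binding proteins IGFBP1 (0.886, 0.370 and 0.0532 CPM against 32.4, 10.8 and 13.3 CPM, -5.43 ± 0.42, adjusted p = 6.95e-07) and IGFBP5 (164, 176 and 130.3 CPM against 1617, 1930 and 1313 CPM, -3.37 ± 0.15, adjusted p = 1.52e-08) fell with IGFBP3. The 2 that rose were the ligand IGF1 (61.6, 61.1 and 86.0 CPM against 0.908, 2.89 and 3.89 CPM, 4.85 ± 0.38, adjusted p = 7.99e-07), named after its values were seen, and the receptor adaptor IRS2 (145, 146 and 144 CPM against 41.2, 45.7 and 35.5 CPM, 1.83 ± 0.09, adjusted p = 4.25e-08).

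Of 18 ERK feedback genes 12 (66.7%) were lower and 2 (11.1%) higher (median -0.94). The background was 17.2% and 13.1% of all genes, and 25.6% and 18.6% of protein-coding genes. The phosphatase DUSP4 was at 25.8, 25.0 and 13.6 CPM in WT-EF against 92.2, 98.0 and 113 CPM in Δ22 (-2.24 ± 0.18, adjusted p = 1.04e-06). The inhibitor SPRY2 changed by -2.30 ± 0.20 (adjusted p = 1.35e-06) and the AP-1 factor FOSL1 by -2.19 ± 0.22 (adjusted p = 4.40e-06). IL17RD, a membrane inhibitor of fibroblast growth factor signalling, was called higher (0.73 ± 0.23, adjusted p = 0.0262), with overlap between groups, and its adjusted p reached 0.262 when libraries were left out. Of 26 ETS family genes 10 (38.5%) were lower and 3 (11.5%) higher. The 10 include FLI1, whose reads include those of the construct. ETV5 (-0.88 ± 0.11, adjusted p = 3.47e-05) and ELF4 (-1.40 ± 0.22, adjusted p = 0.000236) fell. ETS2 rose from 21.2, 32.8 and 34.2 CPM to 82.9, 80.9 and 102 CPM (1.61 ± 0.15, adjusted p = 2.27e-06).

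**Figure D4:**
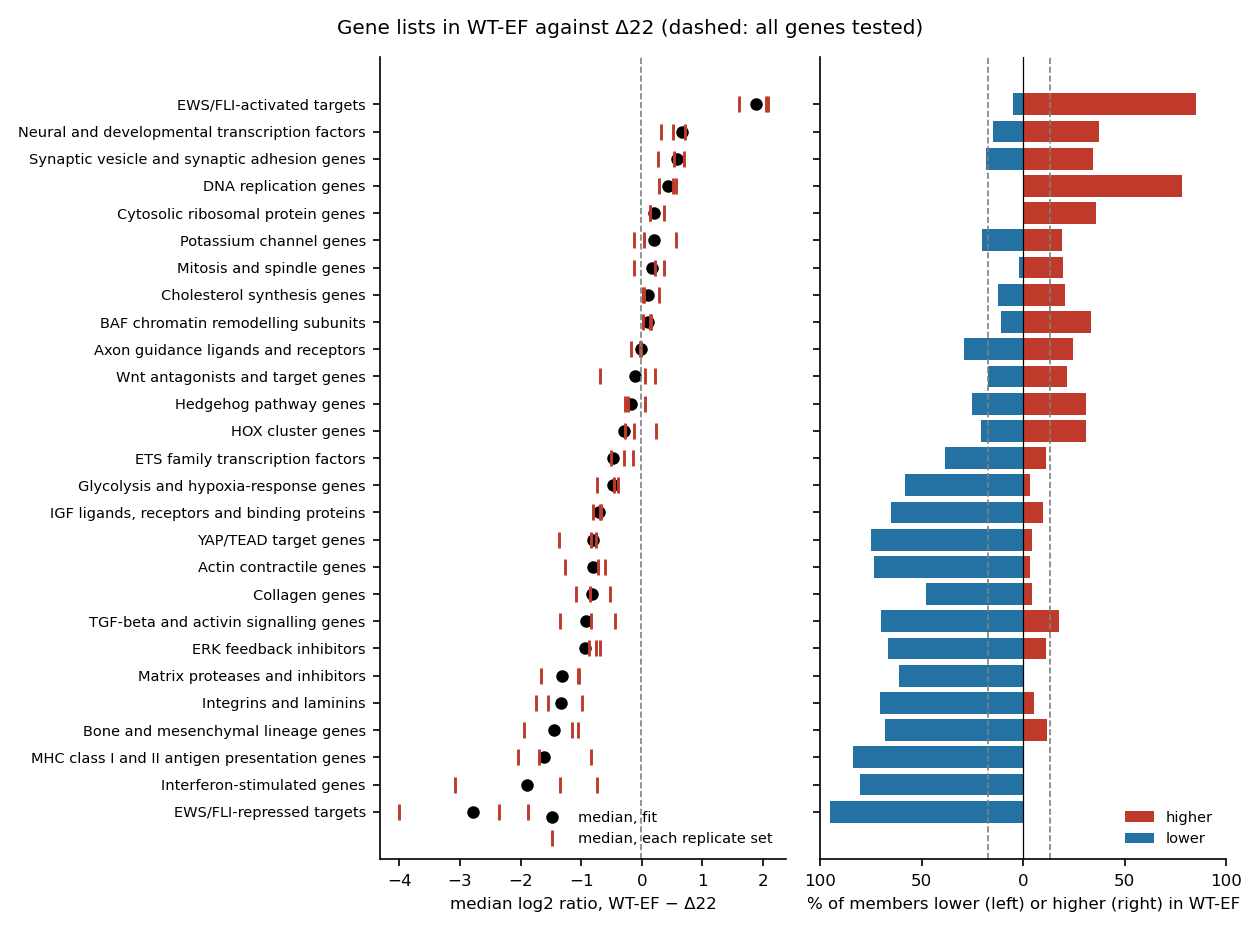
Left: median log2 ratio of WT-EF to Δ22 (x axis) over the tested members of 27 gene lists (y axis), from the fit (black point) and in each replicate set alone (red ticks). Right: percent of members called higher (red) or lower (blue) in WT-EF; dashed lines mark all genes tested, at 13.1% higher and 17.2% lower. Activated targets lie at the top with a median of 1.89, and repressed targets at the bottom with -2.78.

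Interferon-stimulated and antigen presentation genes were lower in WT-EF, by an amount that rested in part on 1 library. Of 41 interferon-stimulated genes 33 (80.5%) were lower and none higher (median -1.90), beside 17.2% of all genes and 25.6% of protein-coding genes lower. The count of lower members was 13 without Δ22 replicate 3, 18 without WT-EF replicate 3 and 19 without replicate set 2. Their summed level was 1172, 1088 and 1479 CPM in WT-EF and 1835, 2460 and 9802 CPM in Δ22, so that Δ22 replicate 3 stood apart from the other two, and the median log2 ratio per set was -0.74, -1.35 and -3.09. SAMD9L, an interferon-induced antiviral factor, was at 12.6, 6.82 and 5.96 CPM against 69.5, 103 and 270.5 CPM (-3.98 ± 0.48, adjusted p = 2.28e-05). Its neighbour SAMD9 changed by -2.28 ± 0.37 (adjusted p = 0.000258) and the transcription factor IRF1 by -2.37 ± 0.39 (adjusted p = 0.000309). In all 3 genes each Δ22 library was above each WT-EF library and replicate 3 was the highest. The cause of the high level in Δ22 replicate 3 was not tested.

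Of 25 genes of MHC class I and II presentation 21 (84%) were lower and none higher (median -1.61). The background was 17.2% of all genes and 25.6% of protein-coding genes lower. Between 14 and 21 members were lower as libraries were left out. HLA-C, a class I heavy chain, was at 145, 95.3 and 124 CPM in WT-EF against 327, 479.6 and 894 CPM in Δ22 (-2.14 ± 0.25, adjusted p = 1.93e-05), and CIITA, the class II master regulator, at 0.775, 0.344 and 0.240 CPM against 4.69, 3.60 and 3.00 CPM (-3.08 ± 0.38, adjusted p = 2.70e-05). Classical HLA genes are near-identical to one another in parts, so reads may be split between them. The summed level of the list was 2455, 2494 and 2427 CPM in WT-EF and 3085, 4538 and 8459 CPM in Δ22.

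Growth-related lists moved by less than 2-fold. Of 46 DNA replication genes 36 (78.3%) were higher in WT-EF and none lower, with a median of 0.44 and no member above 2-fold. MCM6, a subunit of the replicative helicase, stood at 112, 133 and 143 CPM in WT-EF and at 74.1, 61.1 and 77.0 CPM in Δ22 (0.87 ± 0.09, adjusted p = 6.66e-06), the initiation factor MCM10 changed by 0.83 ± 0.10 (adjusted p = 1.63e-05) and the clamp loader subunit RFC4 by 0.76 ± 0.09 (adjusted p = 1.98e-05). Of 51 mitosis and spindle genes 10 were higher and 1 lower (median 0.17), a count of higher genes that ran from 3 to 15 as libraries were left out, with 3 left without replicate set 2 and 6 without Δ22 replicate 3. The 10 higher were 19.6% of the list, beside 13.1% of all genes and 18.6% of protein-coding genes. Of 83 ribosomal protein genes 30 (36.1%) were higher and none lower (median 0.21). But this count was 7 without replicate set 2, 15 without WT-EF replicate 2, 16 without Δ22 replicate 3 and 18 without set 1. RPS27, RPL37 and RPL13 changed by 0.51, 0.46 and 0.43 on the log2 scale (adjusted p = 0.000718, 0.0012 and 0.0013).

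Of 24 cholesterol synthesis genes 5 were higher and 3 lower, and the count of higher genes was 1 without WT-EF replicate 3 or without Δ22 replicate 3, 2 without replicate set 3, and 3 without Δ22 replicate 1, Δ22 replicate 2, set 1 or set 2. The 5 and 3 are 20.8% and 12.5%, beside 13.1% and 17.2% of all genes and 18.6% and 25.6% of protein-coding genes. HMGCS1, which makes the HMG-CoA of the pathway, was at 90.8, 104 and 132 CPM in WT-EF against 57.1, 79.0 and 66.2 CPM in Δ22 (0.71 ± 0.21, adjusted p = 0.0204), and it lost its call without WT-EF replicate 3, Δ22 replicate 1, Δ22 replicate 3 or replicate set 1. Of 31 glycolysis and hypoxia-response genes 18 (58.1%) were lower and 1 (3.23%), PFKM, higher (median -0.48). VEGFA, the angiogenic growth factor, was at 62.4, 64.6 and 74.2 CPM in WT-EF against 196, 178 and 229 CPM in Δ22 (-1.58 ± 0.11, adjusted p = 2.57e-07), with the glucose transporter SLC2A1 (-1.23 ± 0.13, adjusted p = 9.35e-06) and hexokinase HK1 (-0.88 ± 0.10, adjusted p = 1.11e-05) also lower. Of 27 BAF chromatin remodelling subunits 9 were higher (33.3%) and 3 lower (11.1%), and 5 were higher without replicate set 1 or 2. SMARCC1, a core subunit, was at 288, 352 and 416 CPM against 142, 149 and 168 CPM (1.19 ± 0.09, adjusted p = 8.38e-07), BCL7A and ARID2 rose by 0.95 and 0.55 on the log2 scale, and the neural subunit DPF1 fell (-0.95 ± 0.20, adjusted p = 0.0018).

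Endogenous EWS/FLI gives a reference that shares no library with the comparison: iLuc against iEF. There 5624 genes were higher in iLuc (19.5%) and 6368 lower (22.1%). Of the genes higher in WT-EF than in Δ22, 79.2% were also higher in iLuc, which is 52.9% of those higher in iLuc; of the genes lower in WT-EF, 83.5% were also lower in iLuc, or 65% of those lower there. In opposite directions there were 31 and 54 genes. Genes that endogenous EWS/FLI changed by over 2-fold had smaller changes here: the 3036 activated genes had a median of 2.14 for iLuc against iEF and 1.06 for WT-EF against Δ22 (0.92 ± 0.27 over the medians of the 3 replicate sets, SD), and the 3945 repressed genes -2.46 and -1.35 (-1.19 ± 0.33). Since those genes were chosen by their size in iLuc against iEF, part of the smaller median follows from the choice.

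The difference between the effects was tested gene by gene. The effect of WT-EF against Δ22 was above that of iLuc against iEF for 1378 genes (4.79%) and below it for 835 (2.9%). Among genes called in both comparisons, smaller changes in the same direction were the more frequent: of the 4142 genes lower in both comparisons, 919 fell less in WT-EF and 19 fell more, and of the 2977 higher in both, 308 rose less and 12 rose more. The counts of effects above and below moved with single libraries: they were 446 and 215 without set 1, 338 and 152 without set 2, 2433 and 1058 without set 3, 2597 and 1294 without WT-EF replicate 3 and 908 and 526 without WT-EF replicate 2, while 529 were below without WT-EF replicate 1 and 407 without Δ22 replicate 2. CDH13, a cell surface cadherin, shows the pattern, with 38.9, 32.2 and 15.3 CPM in WT-EF and 178, 136 and 139 CPM in Δ22, beside 1.99, 1.12 and 1.04 CPM in iLuc and 235, 231 and 246 CPM in iEF. Both groups with active EWS/FLI were below their partners, but the WT-EF libraries remained above the iLuc libraries, and the difference of effects was 5.03 ± 0.32 (adjusted p = 9.85e-07).

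**Figure D5:**
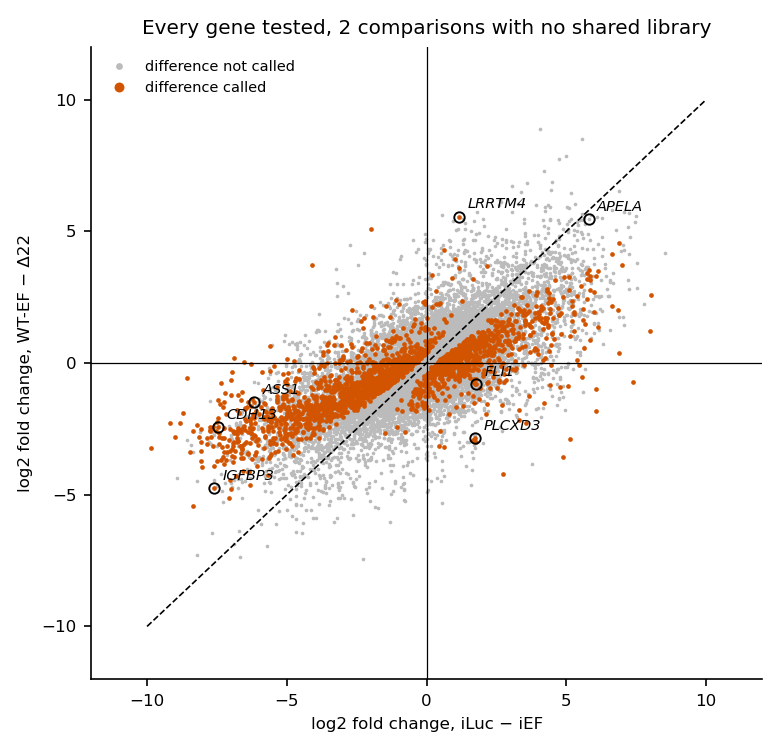
Log2 fold change of WT-EF against Δ22 (y axis) and of iLuc against iEF (x axis) for each of 28793 genes, with those whose difference of effects passed an adjusted p of 0.05 in orange and 7 named genes circled. The dashed line marks equal effects. FLI1 lies at 1.77 and -0.81, and CDH13 at -7.48 and -2.44.

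The genes called at 2-fold were also read in each construct against the shared depleted cells. They were chosen by the same WT-EF and Δ22 libraries, so a gap between their 2 values follows from the choice. Both values use the same iEF libraries, so they are given side by side. For the 1540 genes higher in WT-EF, the median change from iEF was 2.09 in WT-EF and 0.03 in Δ22. For the 2654 lower genes it was -1.71 in WT-EF and 0.12 in Δ22. The list medians follow: activated targets stood 2.37 above iEF in WT-EF and 0.27 in Δ22, repressed targets at -2.58 and -0.10, and DNA replication genes at 0.10 and -0.36, the one of these 3 lists in which the Δ22 median lay farther from iEF than the WT-EF median.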

How the data were processed

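Total RNA of 15 A673 libraries was sequenced from ScriptSeq libraries. Per the labels, reads were processed with STAR 2.5.1b and HTSeq on hg19, and the deposited table holds raw counts per Ensembl gene. A second table by the authors holds estimated counts after ComBat adjustment over replicate sets; these were rounded and used in 1 alternative. A table of the authors' own DESeq2 comparisons was not used, and 3 columns of the count table that match no sample were not used. Genes averaging at least 1 count per library (28793 of 57820) were fitted in edgeR 4.0.16 (R 4.3.3; limma 3.58.1) with TMM scaling, quasi-likelihood tests, and terms for group and replicate set over all 15 libraries. A call is an adjusted p under 0.05. Same-numbered WT-EF and Δ22 libraries deviated together (Pearson r 0.128 to 0.192 over genes; other pairs -0.136 to -0.0256), and the pairing comes from the study's adjustment over replicate sets. DESeq2 1.42.0 was an alternative, with other filters, scalings and left-out libraries. Log2 ratios in single replicate sets used a prior count of 2. The test was checked on simulated data. Intervals and the floor of 3 counts cover counting error.

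Named genes were FLI1 and EWSR1, the 10 largest called changes each way with no overlap between groups, up to 4 called members per list by smallest p, genes the study follows, and 5 genes each way by the test of the difference of effects, all but the first and the followed genes averaging at least 50 counts. The comparison and gene lists were chosen with earlier results of these data known. GGAA runs, the medians at genes changed by endogenous EWS/FLI and the ratios of summed counts with libraries left out were added after the data were seen. Some genes that the rule names are not reported here.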

Additional observations from a re-analysis of the deposited data

Results flagged for a closer look

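For 10 named genes the effect of WT-EF against Δ22 differed from that of iLuc against iEF, by a test of the difference itself in edgeR's quasi-likelihood fit (Benjamini-Hochberg over all genes). In 5 of them the effects had opposite directions. FLI1 gave log2 changes of -0.81 for WT-EF against Δ22 and 1.77 for iLuc against iEF, a difference of -2.58 ± 0.14 (adjusted p = 4.49e-07), and its reads include those of the constructs. PLCXD3 stood at 0.775, 0.978 and 0.772 CPM in WT-EF, 4.75, 6.02 and 7.90 CPM in Δ22, 8.41, 7.38 and 11.7 CPM in iLuc and 2.13, 2.23 and 4.10 CPM in iEF, a difference of -4.57 ± 0.29 (adjusted p = 9.85e-07). MDFIC had changes of 0.84 for WT-EF against Δ22 and -1.35 for iLuc against iEF, differing by 2.19 ± 0.14 (adjusted p = 1.15e-06). The changes of SEMA3D, a secreted semaphorin, were -0.96 for WT-EF against Δ22 and 1.92 for iLuc against iEF, differing by -2.87 ± 0.27 (adjusted p = 1.96e-05). FRG2 belongs to a family of near-identical copies, so its difference of -3.79 ± 0.35 (adjusted p = 1.96e-05) is uncertain.

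In the other 5 both effects were decreases, and that of WT-EF against Δ22 was the smaller. The difference was 5.03 ± 0.32 (adjusted p = 9.85e-07) for CDH13 and 2.28 ± 0.14 (adjusted p = 9.85e-07) for SEMA3A. It was 4.68 ± 0.30 (adjusted p = 9.85e-07) for ASS1, the argininosuccinate synthase, which stood at 166, 106 and 70.3 CPM in WT-EF, 491, 232 and 238 CPM in Δ22, 6.54, 6.71 and 7.76 CPM in iLuc and 599, 493 and 447 CPM in iEF. PDGFA, a platelet-derived growth factor chain, differed by 4.73 ± 0.31 (adjusted p = 1.15e-06) and DKK3 by 3.55 ± 0.24 (adjusted p = 1.27e-06). The difference passed the threshold for all 10 genes under all 14 alternative settings tried for it. These genes were named for the smallest p of this test, so their sizes are not typical of the genes called.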

How the results depend on the processing

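The number of genes lower in WT-EF stayed between 3470 and 4570 as libraries or replicate sets were left out, while the number higher ran from 2261 to 3924. Requiring a fold change above 2 within the test (glmTreat) left 643 genes higher and 1114 lower. The replicate numbers pair the samples by the study's methods; without the replicate block 3336 genes were higher and 4598 lower, and 951 differences of effects were above and 472 below. As libraries were left out, the differences of effects ran from 338 to 2597 above and from 152 to 1294 below, and genes higher in iLuc than iEF from 3689 to 5618. List counts ran from 13 to 37 for interferon-stimulated genes lower, and, for members higher, from 3 to 15 for mitosis, 1 to 6 for cholesterol synthesis, 5 to 9 for BAF subunits and 7 to 38 for ribosomal proteins. With the 6 libraries fitted alone, 2884 genes were higher and 3714 lower, and 5 BAF subunits and 16 ribosomal protein genes were higher. With edgeR's filterByExpr, which kept 19451 genes, the Wnt list median turned from -0.11 to 0.30. It was then taken over only the members that passed that filter, and the cause of the turn was not tested. Of 129 named genes under 15 settings, 7 lost their call under at least 1 setting, and none changed direction. DESeq2 on the batch-adjusted table called 4014 higher and 4711 lower. Scaling by DESeq2 size factors moved the median of all genes from -0.014 to 0.013 on the log2 scale and the share of calls that were higher from 43.1% to 46.0%. Depth limits genes near 3 counts per library.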
